A study of Homo sapiens with 4 samples.

Results

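PML, SP100, DAXX, RNF4, PIAS1 and SENP6 are genes of PML nuclear bodies and of the SUMO and ubiquitin route by which arsenic removes the PML protein. With RARA, which a leukemic fusion joins to PML, they make up the 7 genes read here. The probe sets that name 1 of these genes alone were taken, a probe set being a group of short probes that can read 1 or more transcripts. They were 30 of the 54675 probe sets on the Affymetrix Human Genome U133 Plus 2.0 array: 10 for PML, 6 for SP100, 5 for RARA, 3 for PIAS1, 3 for SENP6, 2 for DAXX and 1 for RNF4. The study treated 2 established human hepatocellular carcinoma lines, Huh7 and Hep3B, with 3 μM arsenic trioxide (ATO) for 7 days or with DMSO, which is called the negative control (NC). There was 1 array profile for each of Huh7 ATO, Huh7 NC, Hep3B ATO and Hep3B NC, so a ratio within a line has no replicate error, and each line is a model of 1 tumor.

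PML bodies are spherical structures in the nucleus, built on a scaffold of the PML protein that carries SUMO, a small ubiquitin-like modifier. Arsenic is known to bind the PML protein directly, after which PML gains SUMO and then ubiquitin chains and is degraded by the proteasome. This is the way arsenic clears the PML-RARA fusion protein of acute promyelocytic leukemia. That route acts on protein, whereas the arrays measured mRNA in bulk, where fewer cells with an mRNA and less of it per cell cannot be told apart.

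SP100, which encodes a PML body resident that restrains viral DNA, was, by its brightest probe set, the 1 gene of the 7 past the thresholds of 1.5 or 0.67 in both lines, and it was higher with ATO, as were 0.804% of all 19775 genes read this way, with 1 probe set per gene. As the mean of its 6 probe sets on the log2 scale, SP100 had ratios of 1.17 in Huh7, which is within the thresholds, and 1.58 in Hep3B. PML itself, DAXX, PIAS1, RARA and SENP6 lay between 0.833 and 1.18 times the control in both lines by their brightest probe set. RNF4, the ubiquitin ligase that reads SUMO chains on PML, was near the control in Huh7 and 1.58 times the control in Hep3B. No probe set of the 7 genes passed the test across the lines, for which limma was fitted to log2 intensities with the cell line as a block. The smallest adjusted p of the 30 was 0.201.

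The upstream sequence of SP100 is shown because SP100 had the highest ratios of the 7 genes, and that of RNF4 because its ratio was past the threshold in 1 line. They are the 250 bases before 1 of the 2 transcription starts listed for each gene in RefSeq on build GRCh38.p14, plus strand, 5′ to 3′, from chr2:230415951-230416200 for SP100 and chr4:2469203-2469452 for RNF4. Capitals mark a match to the antioxidant response element TGACNNNGC, which oxidative stress factors are known to bind.
SP100: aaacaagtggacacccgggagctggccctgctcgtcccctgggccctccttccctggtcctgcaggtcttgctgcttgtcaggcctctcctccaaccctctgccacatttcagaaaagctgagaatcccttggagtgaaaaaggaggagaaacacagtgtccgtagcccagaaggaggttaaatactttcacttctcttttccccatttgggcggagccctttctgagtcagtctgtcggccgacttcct
RNF4: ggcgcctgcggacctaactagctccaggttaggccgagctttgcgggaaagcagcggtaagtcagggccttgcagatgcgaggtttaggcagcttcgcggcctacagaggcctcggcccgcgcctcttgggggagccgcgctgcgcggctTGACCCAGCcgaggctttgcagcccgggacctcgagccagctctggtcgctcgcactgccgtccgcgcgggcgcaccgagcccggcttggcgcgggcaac
Windows of 300 bases around the start were listed for 5 of the 7 genes, 10 windows in all, and were searched on both strands for 3 motifs. TGACNNNGC was in 1 of them, that of RNF4 printed here, with its first base 100 bases before the start, against 13.3% of all 35116 windows of this length. The window of the other RNF4 start, which is not printed, had no match. The interferon-stimulated response element (GAAA, any 2 bases, GAAA) and the gamma-activated site TTCNNNGAA, which interferon factors are known to bind, were in none of the 10, against 3.57% and 7.66% of all windows. At such shares, finding none in 10 windows says little, and near matches were not counted. These are letter matches in short windows, so neither a match nor its absence says anything of binding.

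The probe set 202863_at of SP100 had an intensity of 99.6 in Huh7 ATO and 56.0 in Huh7 NC, and of 206 in Hep3B ATO and 107 in Hep3B NC. Hep3B ATO was the highest and Huh7 NC the lowest, and the ATO profile was above the NC profile in each line. Its ratios, ATO over NC, were 1.78 (Huh7) and 1.93 (Hep3B). The mean log2 difference from limma was 0.89 ± 0.16 (SE from limma), with an adjusted p from limma of 0.201. The mean ratio was thus 1.85, with a 95% interval of 1.43 to 2.39 that is not adjusted for the number of probe sets. Every SE and interval from limma given here rests mostly on the spread of all probe sets (prior of 6.216 against 1 residual degree of freedom). They therefore do not measure the spread of a probe set between the 2 lines. The second probe set, 202864_s_at, had 101 in Huh7 ATO and 59.6 in Huh7 NC, and 183 in Hep3B ATO and 110.1 in Hep3B NC, giving ratios of 1.69 and 1.67. Both probe sets put the 4 profiles in the same order, with Huh7 ATO just below Hep3B NC. On the whole array, 108 of 54613 probe sets other than array controls had a smaller of the 2 ratios at least as high as 202863_at.

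The other SP100 probe sets differed between the lines. 210219_at stood at 9.14 in Huh7 ATO and 9.01 in Huh7 NC, both below the median of all values, 15.9, and at 119 in Hep3B ATO and 60.8 in Hep3B NC. Its ratio was 1.01 in Huh7 and 1.96 in Hep3B. A ratio near 1 at such a low intensity can say little about the mRNA in Huh7. 210218_s_at had 12.8 in Huh7 ATO and 16.04 in Huh7 NC, and 57.0 in Hep3B ATO and 52.7 in Hep3B NC, so it was the 1 SP100 probe set with a ratio below 1, 0.797 in Huh7. The 2 remaining probe sets, 237426_at and 210985_s_at, were dimmer than the median in all 4 profiles, with ratios of 1.03 and 1.57 for the one and 1.05 and 1.46 for the other, Huh7 given first. Which SP100 transcripts each probe set reads was not tested.

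**Figure D1:**
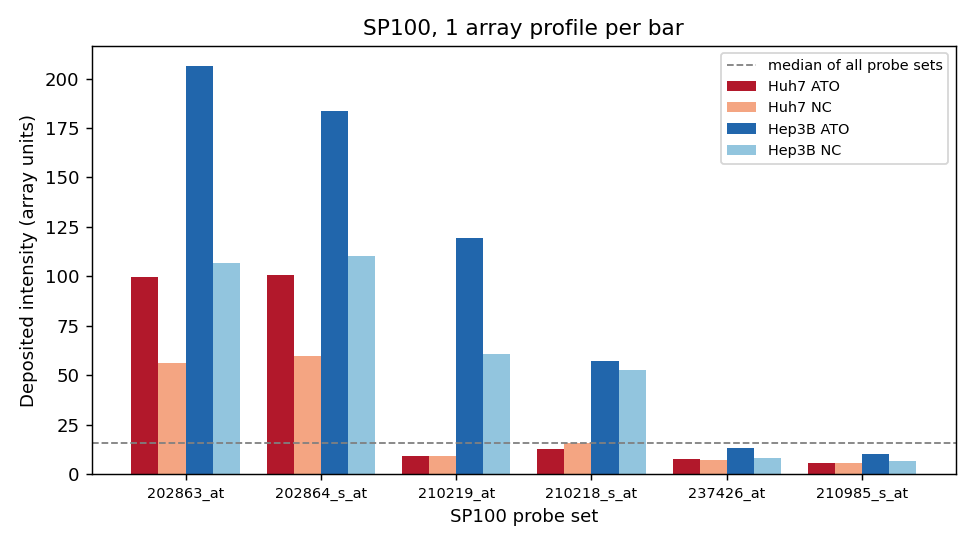
Deposited intensity (y axis, array units) of the 6 SP100 probe sets (x axis), 1 bar per array profile and no error bars, since each condition has 1 profile per line. The bars of ATO exceed those of NC in both lines for 202863_at and 202864_s_at, while 210219_at is at 9.14 and 9.01 in Huh7 and at 119 and 60.8 in Hep3B.

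By its brightest probe set, PML mRNA was close to its control. The probe set 211012_s_at of PML had an intensity of 64.1 in Huh7 ATO and 57.8 in Huh7 NC, and of 68.4 in Hep3B ATO and 62.1 in Hep3B NC. The 4 profiles lay near each other, each ATO profile a little above its NC profile. The ratios were 1.11 in Huh7 and 1.10 in Hep3B, and the mean ratio of 1.11 had an unadjusted 95% interval of 0.858 to 1.43 (limma adjusted p = 0.860). That interval holds both a small decrease and a rise of less than the 1.5 threshold. Of the 10 PML probe sets, 5 had ratios above 1 in both lines, 1 had ratios below 1 in both and 4 pointed in different directions.

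The ratios of the PML probe sets ran from 0.818 to 1.33 in Huh7 and from 0.943 to 1.45 in Hep3B. A pair of them, 211013_x_at and 206503_x_at, had 27.2 and 32.0 in Huh7 ATO and 33.2 and 36.4 in Huh7 NC, but 44.6 and 35.7 in Hep3B ATO and 32.1 and 26.0 in Hep3B NC. Both ratios were thus below 1 in Huh7 (0.818 and 0.878) and above 1 in Hep3B (1.39 and 1.37), and as sets whose names end in _x_at they can bind related transcripts. 239582_at had the largest PML ratios, 1.33 and 1.45, from intensities of 7.67 in Huh7 ATO and 5.75 in Huh7 NC, and of 7.71 in Hep3B ATO and 5.33 in Hep3B NC. All 4 of these values are below the median of the array, where a ratio is uncertain. Its unadjusted limma p was 0.0191 and its adjusted p 0.50.

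**Figure D2:**
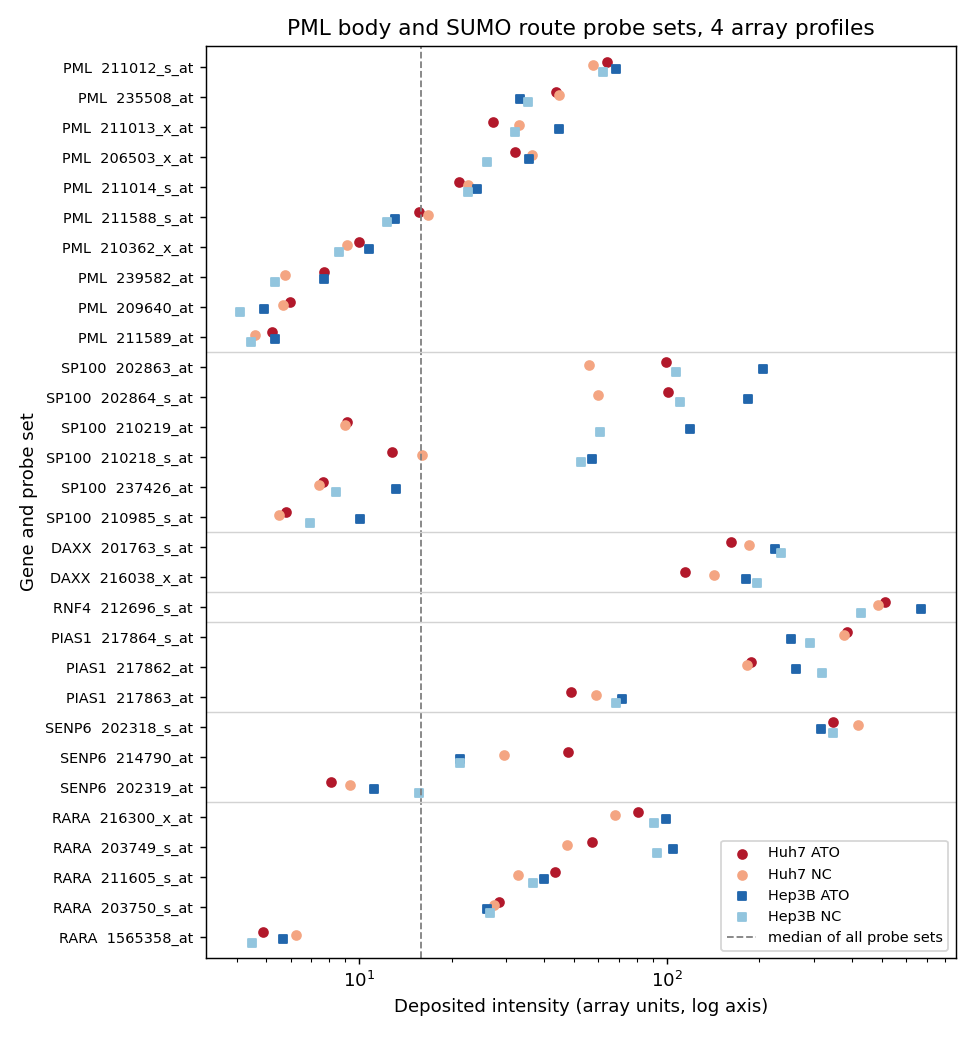
Deposited intensity (x axis, array units, log scale) of the 30 probe sets (y axis, grouped by gene) in Huh7 ATO, Huh7 NC, Hep3B ATO and Hep3B NC, 1 point per array profile. The dashed line is the median of all values, 15.9, below which the mean of 9 of the 30 probe sets lies. For 202863_at of SP100 the points run from 56.0 to 206, and for 211012_s_at of PML from 57.8 to 68.4.

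DAXX, a histone chaperone that SUMO recruits to PML bodies, had ratios slightly below 1 in both lines. 201763_s_at had 161 in Huh7 ATO and 185 in Huh7 NC, and 224 in Hep3B ATO and 235 in Hep3B NC. The Hep3B profiles were both above the Huh7 profiles. The ratios were 0.871 and 0.953, and those of the second probe set, 216038_x_at, 0.807 and 0.925. The mean ratio of 201763_s_at, 0.911, had an unadjusted 95% interval of 0.704 to 1.18 (limma adjusted p = 0.874).

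RNF4 was read by 1 probe set, 212696_s_at, with an intensity of 513 in Huh7 ATO and 485 in Huh7 NC, and of 673 in Hep3B ATO and 427 in Hep3B NC. Hep3B ATO stood above the other 3 profiles. The ratios were 1.06 in Huh7 and 1.58 in Hep3B. The mean ratio was 1.29, with an unadjusted 95% interval of 0.948 to 1.76 (limma adjusted p = 0.667). With 1 profile per condition, the difference between the lines could not be tested.

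PIAS1, a SUMO ligase that can act on PML, differed from its control by less than the thresholds in either line. 217864_s_at had 385 in Huh7 ATO and 377 in Huh7 NC, and 254 in Hep3B ATO and 292 in Hep3B NC, with ratios of 1.02 and 0.870. 217862_at had ratios of 1.03 and 0.824, and 217863_at of 0.827 and 1.04, so the 3 probe sets did not share a direction within a line. The mean ratio of 217864_s_at was 0.942, with an unadjusted 95% interval of 0.724 to 1.23 (limma adjusted p = 0.932).

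SENP6, a protease that trims SUMO chains, had probe sets that disagreed. 202318_s_at had 348 in Huh7 ATO and 418 in Huh7 NC, and 318 in Hep3B ATO and 346 in Hep3B NC, which gives ratios of 0.833 and 0.919 (limma adjusted p = 0.802). 214790_at had 47.9 in Huh7 ATO and 29.5 in Huh7 NC, a ratio of 1.62, but 21.2 in Hep3B ATO and 21.3 in Hep3B NC, a ratio of 0.997. The third, 202319_at, was below the median of the array in all 4 profiles, at ratios of 0.867 and 0.711. A direction for SENP6 as a gene thus rests on which probe set is read.

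RARA, the retinoic acid receptor that the leukemic fusion joins to PML, had ratios above 1 in both lines for 3 of its 5 probe sets. 216300_x_at had 80.4 in Huh7 ATO and 68.0 in Huh7 NC, and 99.1 in Hep3B ATO and 90.6 in Hep3B NC, with ratios of 1.18 and 1.09. 203749_s_at had ratios of 1.21 and 1.13, and 211605_s_at of 1.32 and 1.09. The remaining probe sets were 203750_s_at, at 1.05 and 0.976, and 1565358_at, which was dim in all 4 profiles, at 0.781 and 1.27. The mean ratio of 216300_x_at was 1.14, with an unadjusted 95% interval of 0.880 to 1.47 (limma adjusted p = 0.811).

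Over the 30 probe sets, 3 had a ratio above 1.5 in Huh7, where 2.85% of all 54613 probe sets did, and 5 did in Hep3B, where 4% of all did. In Huh7 these were 202863_at and 202864_s_at of SP100 and 214790_at of SENP6. In Hep3B they were 4 probe sets of SP100 and that of RNF4. None of the 30 was below 0.67 in Huh7 or in Hep3B, against 2.81% and 4.01% of all probe sets. The 2 SP100 probe sets were above 1.5 in both lines, as were 0.529% of all, and none was below 0.67 in both, as were 0.522% of all. Probe sets of 1 gene share their transcripts, so these counts rest on SP100 and do not describe the 7 genes as a group. At an adjusted p under 0.05, limma called 0 of the 30, against 0.011% or 6 of all probe sets, and at an unadjusted p under 0.05 it gave 3 of the 30, against 8.43% of all, a share near that of the 30. They were the 2 SP100 probe sets and 239582_at of PML. Without SP100, the adjusted p of the other 24 probe sets lay between 0.50 and 0.998. On the log2 scale the median ratio of the 30 was 0.04 (Huh7) and 0.13 (Hep3B), and that of all probe sets 0.02 in both.

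**Figure D3:**
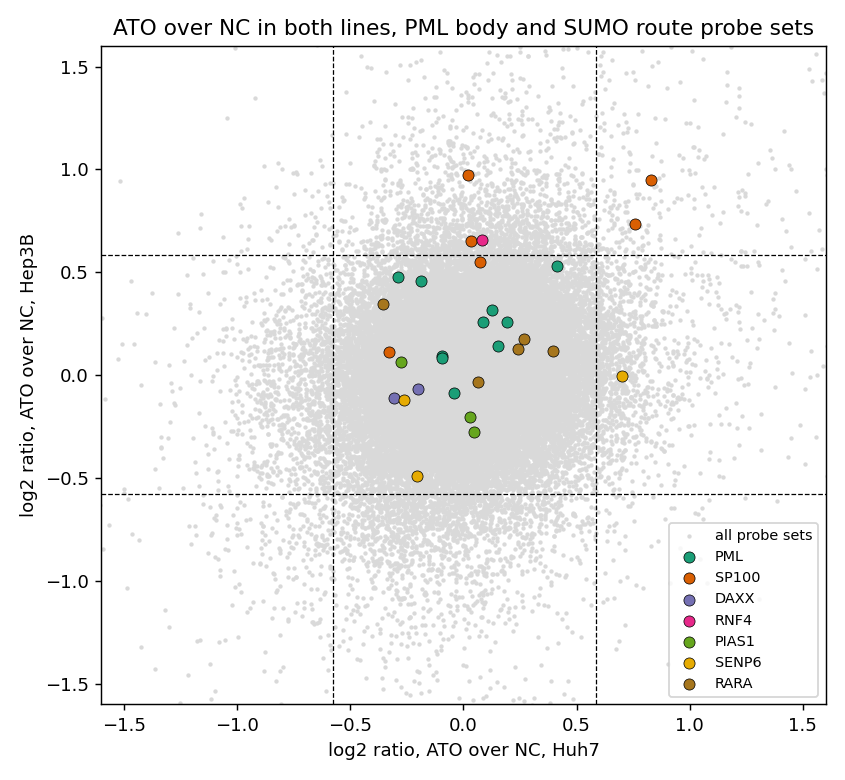
Log2 ratio of ATO over NC in Huh7 (x axis) and in Hep3B (y axis) for the 30 probe sets, coloured by gene, over all 54613 probe sets in grey; 265 grey points lie beyond the axes at 1.6. Dashed lines mark ratios of 1.5 and 0.67. The 2 SP100 points at the upper right are 202863_at and 202864_s_at.

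The cell lines were also compared. The line term of the same limma fit, which takes the 2 profiles of a line as its repeats although 1 had ATO, called 9 of the 30 probe sets, against 24.4% of all probe sets, a background that the share of the 30 lies near. SP100 held 4 of them, all lower in Huh7 than in Hep3B. 202863_at differed by a log2 of -0.99 ± 0.16 (SE), Huh7 minus Hep3B (adjusted p = 0.00346), and 210219_at, low in Huh7, by -3.23 ± 0.24 (adjusted p = 0.000101). 203749_s_at of RARA was lower in Huh7, with a log2 difference of -0.92 ± 0.16 (adjusted p = 0.00477), at 57.3 in Huh7 ATO and 47.5 in Huh7 NC, and 105 in Hep3B ATO and 92.9 in Hep3B NC. 216038_x_at of DAXX, 217862_at of PIAS1 and 202319_at of SENP6 were also lower in Huh7, with log2 differences of -0.56, -0.65 and -0.61, and 214790_at of SENP6 was higher in Huh7, at 0.82. No PML or RNF4 probe set was called between the lines. For RARA, DAXX, PIAS1 and SENP6, other probe sets of the same gene were not called, as with 201763_s_at of DAXX (adjusted p = 0.113), or pointed the other way, as did 217864_s_at of PIAS1 at 0.49 (adjusted p = 0.0705). On log2(intensity + 16) the calls of DAXX, PIAS1 and SENP6 were lost, with adjusted p of 0.0565 for 216038_x_at, 0.0766 for 217862_at, 0.173 for 214790_at and 0.147 for 202319_at, and that of DAXX was also lost with quantile normalization (0.0516).

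Related genes were read with 1 probe set per gene, that with the highest mean intensity among those with 1 gene symbol. At this level 0.804% of 19775 genes were above 1.5 and 0.587% below 0.67 in both lines, and SP100 was the 1 of the 7 genes in either class. Of 21 further PML body residents, none was past the thresholds in both lines, 5 had ratios above 1 and 10 below 1 in both lines, where 32% of all genes were above and 24.7% below, and their log2 ratios had medians of -0.03 (Huh7) and -0.13 (Hep3B), against 0.01 and 0.04 for all genes. The largest mean differences were those of ZBTB16, a repressor that retinoic acid receptor fusions also involve, with 6.88 in Huh7 ATO and 9.44 in Huh7 NC and 9.29 in Hep3B ATO and 24.2 in Hep3B NC, and of ISG20, an interferon-induced exonuclease. ZBTB16 is dim in most profiles, at ratios of 0.728 and 0.384. ISG20 had 232 in Huh7 ATO and 214 in Huh7 NC, and 132.8 in Hep3B ATO and 66.9 in Hep3B NC, at ratios of 1.09 and 1.99. None of the 21 had an adjusted p under 0.05 from limma, and 6 had an unadjusted p under 0.05, a larger share than the 9.86% of the 19775 genes. Of these 6, ISG20 was higher with ATO, and ZBTB16, MORC3, CREBBP, SIRT1 and MDM2 were lower. CREBBP had ratios of 0.91 (Huh7) and 0.53 (Hep3B), SIRT1 of 0.84 and 0.61, MDM2 of 0.86 and 0.59, and MORC3 of 0.79 and 0.60. MORC3 had 11.4 in Huh7 ATO and 14.3 in Huh7 NC, and 15.6 in Hep3B ATO and 26.1 in Hep3B NC. All of these but Hep3B NC were below the median of all values.

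SP110, SP140 and SP140L are the relatives of SP100 that lie next to it on chromosome 2, and they were picked out after their values were seen. SP110 had 157 in Huh7 ATO and 145 in Huh7 NC, and 224 in Hep3B ATO and 122 in Hep3B NC, with ratios of 1.08 and 1.83. SP140L had 164 in Huh7 ATO and 187 in Huh7 NC, and 52.5 in Hep3B ATO and 23.0 in Hep3B NC, with ratios of 0.875 and 2.28. SP140 was dim in all 4 profiles, at 1.08 and 1.27. SP100 was thus past 1.5 in both lines, and SP110 and SP140L in Hep3B alone, a difference between the lines that 1 profile per condition cannot test. The limma adjusted p was 0.594 for SP110 and 0.722 for SP140L.

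The SUMO machinery gave ratios on both sides of 1. Of 10 measured genes for SUMO and its conjugation, none was past the thresholds in both lines, 3 had ratios above 1 and 3 below 1 in both, and the log2 ratios had medians of -0.01 (Huh7) and 0.02 (Hep3B). NSMCE2, a SUMO ligase of the SMC5/6 complex, had ratios of 1.19 and 1.40, and SUMO3, a modifier that forms chains, of 0.827 and 0.813. Of 7 measured SUMO proteases other than SENP6, none passed in both lines. SENP7, which like SENP6 trims chains, had 11.1 in Huh7 ATO and 17.1 in Huh7 NC and 20.8 in Hep3B ATO and 25.6 in Hep3B NC, with ratios of 0.649 and 0.813, and SENP5 had 1.15 and 1.24. Among 6 genes that act with or beside RNF4, NPLOC4, a cofactor of the segregase VCP that extracts ubiquitinated proteins, had 1.31 and 1.254, the deubiquitinase USP11 had 1.04 and 1.23, and none passed in both lines. Of these 23 genes, none had an adjusted p under 0.05 from limma and 1, SENP7, had an unadjusted p under 0.05, against the 9.86% of all genes.

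Other retinoid receptors were read next, and corepressors were not analysed here. Of the 5 measured, RARB, RARG, RXRA, RXRB and RXRG, none passed in both lines. RXRA, the dimer partner of RARA, had 85.5 in Huh7 ATO and 96.9 in Huh7 NC, and 682 in Hep3B ATO and 755 in Hep3B NC, at ratios of 0.882 and 0.904, and RARB, a receptor that retinoic acid induces, had 0.957 and 0.905. Of 8 retinoic acid target genes, 4 had ratios above 1 in both lines, against the 32% of all genes, none had ratios below 1 in both, and none passed in both, with log2 medians of 0.26 (Huh7) and 0.43 (Hep3B). TGM2, a transglutaminase, had 332 in Huh7 ATO and 105 in Huh7 NC, and 129 in Hep3B ATO and 92.01 in Hep3B NC, at ratios of 3.17 and 1.40. RARRES1 had 6.70 in Huh7 ATO and 4.65 in Huh7 NC, which are dim, and 147 in Hep3B ATO and 76.8 in Hep3B NC, at ratios of 1.44 and 1.91. Their adjusted p from limma was 0.366 and 0.342. The 4 targets without a shared direction, picked out after their values were seen, included CYP26A1, an enzyme that degrades retinoic acid, which had 85.3 in Huh7 ATO and 177 in Huh7 NC, a ratio of 0.481, and 20.2 in Hep3B ATO and 15.6 in Hep3B NC, a ratio of 1.29. STRA6, a retinol transporter, had ratios of 0.637 and 1.601, and CYP26B1, a relative of CYP26A1, of 1.17 and 0.683.

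PML and SP100 are known interferon-induced genes, so 10 other interferon factors and targets were read beside them. None was past the thresholds in both lines, 4 had ratios above 1 in both and 3 below 1 in both, against the 32% and 24.7% of all genes, and the log2 medians were -0.03 (Huh7) and 0.21 (Hep3B). MX1, an antiviral GTPase, had 9.19 in Huh7 ATO and 8.08 in Huh7 NC, and 27.0 in Hep3B ATO and 13.0 in Hep3B NC, at ratios of 1.14 and 2.08, mostly from dim values. IRF1, a transcription factor of the interferon response, had 49.5 in Huh7 ATO and 40.9 in Huh7 NC, and 55.3 in Hep3B ATO and 37.7 in Hep3B NC, at ratios of 1.21 and 1.47. ISG15 and IRF9, picked out after their values were seen, were not dim. ISG15 had 356 in Hep3B ATO and 210 in Hep3B NC, at ratios of 1.03 in Huh7 and 1.69 in Hep3B. IRF9 had 103 in Hep3B ATO and 68.4 in Hep3B NC, at ratios of 1.004 and 1.504. The 3 genes below 1 in both lines were IFIT1, IFIT3 and IFITM1. Their ratios were 0.96, 0.955 and 0.798 in Huh7 and 0.811, 0.743 and 0.988 in Hep3B. IFIT1 had 11.1 in Hep3B ATO and 13.7 in Hep3B NC, which are dim. IFITM1 was close to the median of all values in both Hep3B profiles. The part of the 10 interferon factors and targets in the SP100 values was not tested.

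**Figure D4:**
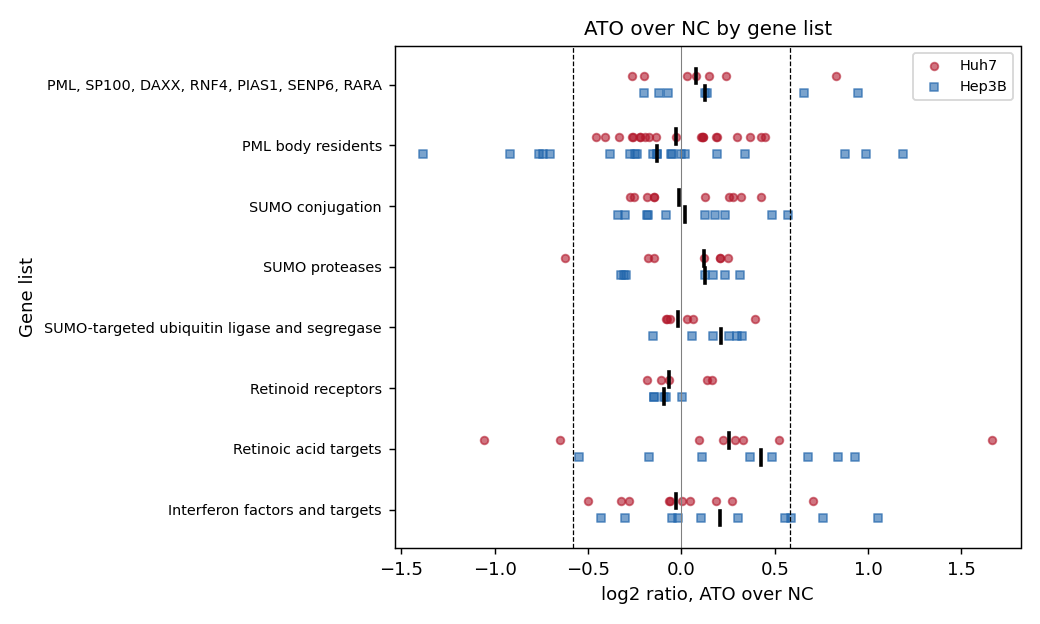
Log2 ratio of ATO over NC (x axis) in Huh7 (circles) and Hep3B (squares), 1 point per gene, for the 7 genes and for 7 further gene lists (y axis), with black ticks at the list medians and dashed lines at ratios of 1.5 and 0.67. The points of most lists lie on both sides of 0, and the SP100 points lie to the right of the dashed line in the top row.

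Genes known to respond to arsenic and markers of liver cells were read as a check of the labels. All 6 measured genes of an oxidative stress list were above 1.5 in both lines, HMOX1 at ratios of 8.28 and 4.97 and GCLM, SRXN1, TXNRD1, SLC7A11 and NQO1 between 1.85 and 4.48, and HMOX1 was 1 of the 6 probe sets that limma called. The 8 hepatocyte markers were above the median of the array in every profile, with intensities of at least 32.8, whereas 6 of 7 markers of leukocytes, endothelium and fibroblasts stayed at or under 20.5 and COL1A1 reached 76.4. AFP, a fetal liver protein for which both lines are known, stood at 62.1 in Huh7 ATO and 91.8 in Huh7 NC and at 1646 in Hep3B ATO and 3567 in Hep3B NC. ALB had 358 in Huh7 ATO and 155 in Huh7 NC and 10730 in Hep3B ATO and 12803 in Hep3B NC, and TTR had 32.8 in Huh7 ATO and 48.1 in Huh7 NC and 1983 in Hep3B ATO and 1704 in Hep3B NC. All 3 were thus far lower in Huh7, and APOA1 and TF were also lower there. FGB, a fibrinogen chain, was higher in Huh7, at 762 (ATO) and 1012 (NC) against 590 (ATO) and 210 (NC) in Hep3B. SERPINA1 was also higher in Huh7 within each condition, at 10211 (ATO) and 12710 (NC) against 6689 (ATO) and 10091 (NC). Its Huh7 ATO value was near that of Hep3B NC, and limma did not call the difference between the lines (adjusted p = 0.0821). APOB differed little (log2 of -0.20, Huh7 minus Hep3B). Whether the profiles match reference profiles of these lines was not tested. The ratios of FGB were 0.752 and 2.82, and PTPRC, a leukocyte marker, had intensities between 6.15 and 8.87. RB1, which Hep3B is known to lack, stood at 117 in Huh7 ATO and 136 in Huh7 NC and at 6.05 in Hep3B ATO and 6.71 in Hep3B NC. Poly-A control transcripts, which are added to the RNA, stood at log2 medians of -0.28 (Huh7) and -0.23 (Hep3B), lower with ATO, and hybridization controls, which are added later, at 0.09 and 0.10.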

How the data were processed

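The authors hybridized RNA of ATO-treated and NC cells to U133 Plus 2.0 arrays. According to the methods, values were made with Robust Multi-array Average, log-transformed and quartile-normalized in R (simpleaffy). The values as deposited are intensities on a linear scale, and how they left the log scale, or whether a column pools arrays, is not given in the sources used here. No detection call was used, and the number of profiles, 4, limits the precision.

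Of 54675 probe sets, 41097 had 1 gene symbol in the platform annotation, 1801 had several and 11777 none, and 62 array controls were left out of the comparisons. Ratios of ATO over NC were taken within each line. Thresholds of 1.5 and 0.67 follow the study. Log2 intensities, without an offset, were fitted with limma 3.58.1 in R 4.3.3 for line and treatment (1 residual degree of freedom, prior 6.216), with Benjamini-Hochberg adjustment over 54613 probe sets. The lines serve as replicates. The fit was tested on simulated data. Every member was named, and, of each further list, any gene past a threshold in both lines and the 2 with the largest mean log2 ratio among the rest. RB1, SP110, SP140L, SP140, RARG, RXRB, RXRG, CYP26A1, STRA6, CYP26B1, ALB and TTR fall outside this rule and were chosen after their values were seen. The same holds for MORC3, CREBBP, SIRT1, MDM2, CRABP2, PLAAT4, ISG15, IRF9, IFIT1, IFIT3, IFITM1, SERPINA1, APOB, APOA1 and TF. The members and lists were chosen with earlier results of these data known. Alternatives were other thresholds, an offset of 16, an intensity trend, no block, other normalizations and other choices of probe sets. List genes without a probe set of 1 symbol were not analysed here.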

Additional observations from a re-analysis of the deposited data

Results flagged for a closer look

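PIAS1 was picked out because the ratio of its brightest probe set, 217864_s_at, was above 1 in Huh7, 1.02, and below 1 in Hep3B, 0.870. The log2 ratio of this probe set in Huh7 minus that in Hep3B was 0.23. The difference was not tested, as each line has 1 ATO and 1 NC profile. 217862_at pointed the same way, at 1.03 and 0.824, and 217863_at the other way, at 0.827 and 1.04. As the mean of its 3 probe sets on the log2 scale, PIAS1 was below 1 in both lines, at 0.955 (Huh7) and 0.908 (Hep3B).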

How the results depend on the processing

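Of 27 recomputed counts that were above 0 as reported, 18 stayed within 1.5 times their value. Of 28 that were 0, 26 were again 0, which says little. With probe sets ending in _x_at or _s_at left out, 3 probe sets were above the threshold in Hep3B and 1, an SP100 probe set, in both lines. With thresholds of 2 and 0.5 the counts above were 0 in Huh7, 0 in Hep3B and 0 in both, and with 0.8 and its reciprocal they were 5 above and 2 below in Huh7 and 10 above and 1 below in Hep3B. Between the lines, limma called 5 of the 30 probe sets on log2(intensity + 16), and 1 of the 7 with 1 probe set per gene, where fewer were tested. For ATO over NC, limma called none under each of 7 alternatives, which tested all 30 probe sets except for 7 with 1 probe set per gene and 21 with dim ones left out. Over all probe sets it called 3 higher and 3 lower, against 26 and 18 with an intensity trend in the prior, 6 and 5 with arrays centred on their median, and 0 with the offset of 16, without the line as a replicate block, with quantile normalization and with dim probe sets left out. With 1 probe set per gene it called 5 and 3. The cause of these differences was not tested. The adjusted p of SP100 ran from 0.169 to 1, the highest without the block. Its mean log2 ratio was 0.89 by its brightest probe set, 0.45 as the mean of all its probe sets and 0.62 as the median of those not dim. That of SENP6 was -0.19, and 0.08 as the median of its probe sets that were not dim. Without Hep3B the log2 ratio of RNF4 was 0.08 and that of PIAS1 0.03, and without Huh7 they were 0.66 and -0.20.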
